A study of Mus musculus with 6 samples.

Results

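The 33 hypoxia and glycolysis genes described here were chosen by name: Hif1a and 2 of the prolyl hydroxylases that act on its protein, 4 glucose and lactate transporters, the enzymes that take glucose to pyruvate and lactate, and further target genes of the hypoxia-inducible factors (HIF). All 33 were found among the 53546 genes counted, and all 33 were among the 20541 genes that passed the filter on low counts. RNA was sequenced from non-parenchymal cells (the liver cells other than hepatocytes) of male mice, 3 wild type and 3 SRA-/-, each group 6 h after an intraperitoneal injection of acetaminophen at 400 mg/kg. SRA is scavenger receptor A, a surface receptor of macrophages and endothelial cells encoded by Msr1. All mice received acetaminophen, and no untreated mice are part of the comparison, so it asks only how SRA-/- libraries differ from wild type libraries after the drug. The labels name neither the strain and age of the mice nor the exon disrupted in SRA-/-.

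HIF is a transcription factor made of an oxygen-regulated subunit (Hif1a or Epas1) and a stable partner, Arnt. With oxygen present, prolyl hydroxylases mark the regulated subunit for ubiquitination by the Vhl complex, and with low oxygen the subunit persists and raises transcription of genes for glucose uptake, glycolysis, lactate export and new vessels. Regulation of Hif1a is thus mostly of the protein, and its mRNA level need not follow its activity. In the liver, acetaminophen injury begins around the central veins, where oxygen is lowest, and neutrophils and macrophages rely on glycolysis for energy.

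The libraries held 23757203 to 44003902 counts each. Levels are given as CPM (counts scaled to a common library size, adjusted by TMM factors of 0.896 to 1.08), and as FPKM (those CPM per kilobase of exon) where genes are compared with each other. Genes used as hepatocyte markers took 3.21% to 9.64% of counts although the label is non-parenchymal, and sinusoidal endothelial markers summed to 2635 to 4895 CPM and Kupffer cell markers to 590 to 1602 CPM. Msr1 itself was read at 38.6, 73.5 and 113.6 CPM in wild type against 40.2, 33.6 and 42.0 CPM in SRA-/- replicates 1 to 3. The count covers the whole gene, and wild type replicate 1, which had the lowest Kupffer cell sum, lies within the SRA-/- range, so Msr1 did not check every label (log2 fold change -0.96 ± 0.33, SE, edgeR adjusted p = 0.9999). These are bulk libraries, in which fewer cells of a type and less RNA per cell cannot be told apart.

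No member passed edgeR's quasi-likelihood test at an adjusted p of 0.05, against 10 genes (0.0487%) of all tested. At an unadjusted p under 0.05 the 2 lactate and glucose carriers Slc16a3 and Slc2a3 were higher in SRA-/- libraries and 0 members were lower, while over all tested genes 2.32% were higher and 0.896% lower. Groups did not overlap for Gapdh and Eno1, both higher in SRA-/- libraries, and for 0 members lower, beside 3.97% and 3.33% of all tested genes. The median log2 fold change of the members was -0.02, with 16 above 0 and 17 below, and that of all tested genes was -0.01. Fold changes ran from -0.42 (Ankrd37) to 1.45 (Slc16a3) on the log2 scale, and the 95% interval of 25 of the 33 lay within a 2-fold change in either direction. The intervals of the 8 others (Egln3, Slc2a3, Slc16a3, Hk1, Hk2, Pfkfb3, Pkm and Ankrd37) reached past 2-fold. The number of members under 0.05 moved with single libraries. It was 1 without SRA-/- replicate 1, and also 1 without SRA-/- replicate 3. With wild type replicate 1 left out it was 2, of which 0 were higher. The share of all tested genes under 0.05 is not given for these 3 fits. Calls over all tested genes moved as well, to 4, 3 and 13 in the same order, from 10 with every library kept.

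**Figure D1:**
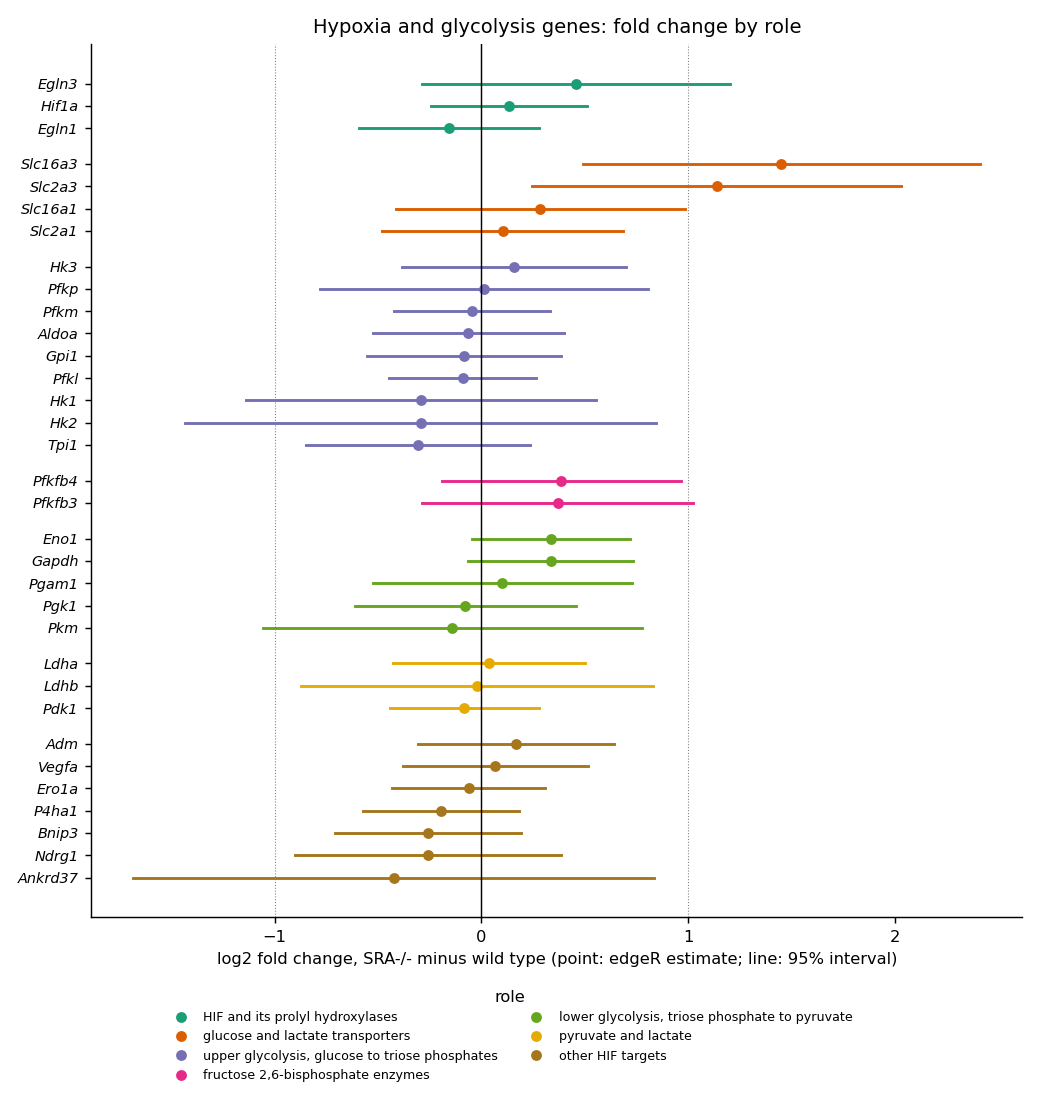
Log2 fold change (SRA-/- minus wild type) of each of the 33 genes, grouped by role, with the point as edgeR's estimate and the line as its 95% interval over 3 against 3 libraries. The intervals of Slc16a3 and Slc2a3 lie above 0 and those of the other 31 genes cross it.

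The HIF response element has the core ACGTG or GCGTG. RefSeq windows of 300 bases around the annotated start (build GRCm38.p6, which is not the build of the counts) were searched for both cores on both strands, with overlapping matches such as CACGTG counted as 1 site. Of the 31 members with a window, 29 (93.5%) held a match and 23 (74.2%) held 2 or more sites in a window. The match was also common elsewhere: 62.6% of the tested genes with a window and 46.7% of all genes with a window held it, and 30.5% and 19.2% held 2 or more sites. Median GC content was 63.3% for members, 59.3% for tested genes and 52.7% for all. The 250 bases before the start are printed 5′ to 3′ on the gene's strand for 4 members of different roles, in lower case with the cores in capitals (CACGC and CACGT are the cores as read on the other strand). They are a lactate exporter (Slc16a3, chr11:120948817-120949066, + strand), a glycolytic enzyme (Eno1, chr4:150236947-150237196, + strand), a mitochondrial receptor for mitophagy (Bnip3, chr7:138909507-138909756, - strand) and a regulator of glycolytic flux (Pfkfb3, chr2:11502091-11502340, - strand), so that the HIF core can be seen beside their values.
Slc16a3: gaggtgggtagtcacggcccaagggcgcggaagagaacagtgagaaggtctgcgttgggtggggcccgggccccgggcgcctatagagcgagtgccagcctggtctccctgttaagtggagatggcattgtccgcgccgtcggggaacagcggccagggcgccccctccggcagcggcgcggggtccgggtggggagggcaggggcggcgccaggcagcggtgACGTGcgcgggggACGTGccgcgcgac
Eno1: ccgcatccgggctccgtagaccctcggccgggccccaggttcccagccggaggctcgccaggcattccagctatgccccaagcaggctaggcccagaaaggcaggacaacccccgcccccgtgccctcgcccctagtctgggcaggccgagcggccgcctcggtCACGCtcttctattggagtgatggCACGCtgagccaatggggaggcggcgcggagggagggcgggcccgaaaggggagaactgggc
Bnip3: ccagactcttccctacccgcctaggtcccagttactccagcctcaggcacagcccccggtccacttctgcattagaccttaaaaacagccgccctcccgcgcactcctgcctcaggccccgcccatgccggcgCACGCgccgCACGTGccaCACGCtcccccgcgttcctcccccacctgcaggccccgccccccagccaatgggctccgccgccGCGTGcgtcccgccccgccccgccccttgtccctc
Pfkfb3: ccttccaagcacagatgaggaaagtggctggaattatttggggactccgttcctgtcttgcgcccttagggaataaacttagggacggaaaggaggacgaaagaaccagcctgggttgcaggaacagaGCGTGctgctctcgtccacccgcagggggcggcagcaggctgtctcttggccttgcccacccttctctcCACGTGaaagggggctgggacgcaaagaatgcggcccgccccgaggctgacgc
In Slc16a3 the 2 matches begin 27 and 14 bases before the start, and in Eno1 86 and 62 bases before it. Bnip3 holds 4 sites and Pfkfb3 holds 2, each with 1 palindromic CACGTG. These windows were picked for their matches: for each gene, the window with the most before the start. Members with 2 or more matches came first, then those with the smallest unadjusted p by edgeR. The other Pfkfb3 window held 1 match. A match is a description of these letters and not evidence of binding.

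Levels per length spanned a wide range. Ldha, the lactate dehydrogenase subunit that favours lactate formation, was the most abundant member at 96.6 FPKM and ranked 303 among the 20541 tested genes. Vegfa, the main growth factor of endothelial cells, followed at 74.4 FPKM, then Aldoa at 37.3, Pkm at 32.0 and Tpi1 at 29.1 FPKM. Hif1a ranked 9 of the 33 at 10.3 FPKM, next to Slc16a1 (10.5), Egln1 (10.2) and Ndrg1 (10.1), and these 4 neighbours overlapped library by library. At the low end were Pgam1 at 1.76, Slc2a3 at 1.71, Egln3 at 1.11 and Ankrd37 at 0.249 FPKM, the last with 7 to 22 counts a library, where 6 counts correspond to 0.13 to 0.272 CPM.

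**Figure D2:**
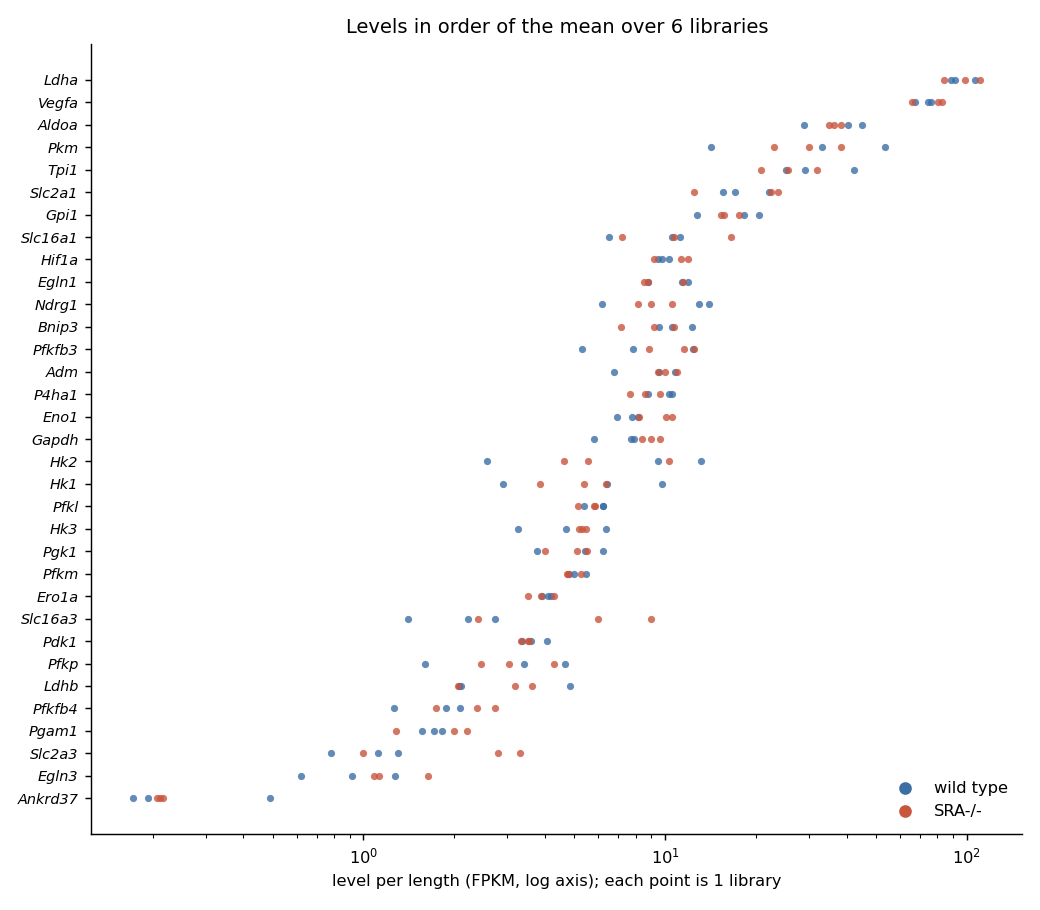
Level of each gene in FPKM on a log axis, in order of its mean, with 1 point per library (blue wild type, red SRA-/-). The groups overlap at every gene except Gapdh and Eno1, and the means over the 6 libraries reach from 0.249 FPKM for Ankrd37 to 96.6 FPKM for Ldha.

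For Hif1a and the hydroxylases among the members the differences were within the spread of replicates. Hif1a (mm39, chromosome 12, 73948149-73994304, + strand) was measured at 60.9, 56.0 and 57.6 CPM in wild type against 70.5, 54.2 and 66.8 CPM in SRA-/- replicates 1 to 3, the order used from here on. The lowest and the highest library were both SRA-/-, and the log2 fold change was 0.13 ± 0.17 (SE, unadjusted p = 0.444), with a 95% interval from -0.24 to 0.51. Egln1, the hydroxylase that sets HIF stability in most cells, read 31.6, 40.9 and 43.0 against 41.2, 30.7 and 31.6 CPM (log2 fold change -0.16 ± 0.19, unadjusted p = 0.439). Egln3, a hydroxylase that is itself a HIF target, was at 2.44, 3.38 and 1.66 against 2.90, 4.34 and 2.996 CPM (0.46 ± 0.33, unadjusted p = 0.201). The groups overlapped for all 3 genes.

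The remaining machinery of the pathway also gave small differences. The 12 further genes were those of HIF subunits, asparaginyl hydroxylation and the Vhl ubiquitin complex, with Egln2, another prolyl hydroxylase, and Cited2. Of these, 11 were tested (Arnt2 was too low), 0 had an unadjusted p under 0.05 and all 11 intervals lay within 2-fold. Egln2 was at 41.2 FPKM, above Egln1 at 10.2 FPKM, with a log2 fold change of 0.12 ± 0.17. Epas1, the HIF subunit known from endothelial cells and hepatocytes, was far more abundant than Hif1a at 89.5 FPKM, with 509 ± 26.1 CPM in wild type and 492 ± 35.5 CPM in SRA-/- libraries (SD, n = 3 each, log2 fold change -0.05). The smallest p-values were those of Rbx1, the ring subunit of the ubiquitin ligase (-0.30 ± 0.19, unadjusted p = 0.146), and of Vhl, its substrate receptor (-0.20 ± 0.23, unadjusted p = 0.401).

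The transporters held the largest differences. Slc16a3 (MCT4, a lactate exporter of highly glycolytic cells, mm39, chromosome 11, 120839306-120851694, + strand), whose promoter is printed above, was at 7.49, 11.8 and 14.5 CPM in wild type against 47.8, 12.8 and 31.8 CPM in SRA-/- libraries. Its counts were 218, 311 and 489 against 2194, 382 and 700. SRA-/- replicates 1 and 3 were above every wild type library and replicate 2 fell among them, so the groups overlapped (log2 fold change 1.45 ± 0.43, SE, interval 0.49 to 2.41, unadjusted p = 0.00746, edgeR adjusted p = 0.9589). Of its exons, 5.75% overlap Csnk1d on the opposite strand, and reads over both genes were not counted. Slc2a3 (GLUT3, a high-affinity glucose transporter of neurons and leukocytes, mm39, chromosome 6, 122704768-122778599, - strand) was at 5.67, 8.13 and 9.45 against 20.2, 7.22 and 23.9 CPM. Again SRA-/- replicates 1 and 3 stood above every wild type library and replicate 2 among them. Its log2 fold change was 1.14 ± 0.40 (SE, interval 0.25 to 2.03, unadjusted p = 0.0178, edgeR adjusted p = 0.9999). Neither transporter passed the adjusted threshold.

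Slc2a1 and Slc16a1, the widely expressed glucose and lactate carriers, had smaller differences. Slc2a1 read 54.6, 77.5 and 59.9 against 83.3, 43.6 and 79.0 CPM (log2 fold change 0.10 ± 0.26, unadjusted p = 0.704), with SRA-/- replicate 2 the lowest of all 6 libraries. Its SRA-/- replicates 1 and 3 were also above every wild type library, by 79.0 against 77.5 CPM at the nearest. Slc16a1 read 46.8, 49.7 and 28.8 against 47.3, 31.9 and 73.3 CPM (0.28 ± 0.31, unadjusted p = 0.383). It was highest in the library with the highest hepatocyte marker sum, SRA-/- replicate 3, and lowest in the one with the lowest, wild type replicate 3. The role of hepatocyte RNA in that difference was not tested.

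Markers of neutrophils, in their sum, followed the same libraries as Slc2a3 and Slc16a3. The 8 neutrophil markers (S100a8, S100a9, Csf3r, Retnlg, Cxcr2, Ly6g, Mmp8 and Stfa2l1) summed to 13.4, 29.1 and 36.7 CPM in wild type against 125.3, 39.1 and 161.5 CPM in SRA-/- libraries. All 6 that were tested were higher at an unadjusted p under 0.05, with a median log2 fold change of 2.12 and a smallest edgeR adjusted p of 0.5213, and 0 of the 8 were at 0 counts throughout a group. The untested ones, of low count, were Ly6g (1, 0 and 3 counts against 0, 4 and 15) and Stfa2l1 (2, 2 and 2 against 61, 8 and 18). Ly6g thus had 0 counts in SRA-/- replicate 1. The 6 monocyte markers summed to 13.1, 22.3 and 23.4 against 21.7, 21.1 and 18.2 CPM, of which Plac8 alone made up 8.90 to 16.9 CPM. Of the 6, 3 had log2 fold changes above 0 and 3 below. Ccr2 did not overlap, at 1.31, 1.14 and 1.81 against 2.63, 3.01 and 3.68 CPM (1.12 ± 0.31, SE, edgeR unadjusted p = 0.005, adjusted p = 0.8413). Hepatocyte markers summed to 87850, 62810 and 29620 against 58610, 53750 and 104000 CPM. Markers of pancreatic acinar cells (10 genes) also split the libraries, at 460, 402 and 787 CPM in wild type against 1.44, 286 and 0.817 CPM in SRA-/-. The sum of 5 cholangiocyte markers also put SRA-/- replicates 1 and 3 above every wild type library, at 47.3, 59.6 and 54.7 against 90.8, 50.5 and 60.8 CPM. Of these 5, 3 had log2 fold changes above 0 and 2 below, with 0 at an unadjusted p under 0.05. The part of neutrophils, of monocytes, of cholangiocytes or of pancreatic tissue in the transporter difference was not tested. Without SRA-/- replicate 2 the log2 fold changes rose to 1.82 for Slc16a3 and 1.51 for Slc2a3 (edgeR adjusted p = 0.1211 for both). They were 0.98 and 1.0 with SRA-/- replicate 1 left out, and 1.43 and 0.82 with replicate 3 of that group left out. Dropping wild type replicate 1 gave 1.24 and 0.96 (unadjusted p = 0.0583 and 0.0811). With wild type replicate 1 and SRA-/- replicate 2 both left out, a pair picked on measured expression, both genes were called (1.61, edgeR adjusted p = 0.01707, and 1.33, 0.02381). In that fit 101 of all 20421 tested genes were called, against 10 of 20541 with every library kept. The fit shows how far those 2 libraries carry the result and is no independent test.

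**Figure D3:**
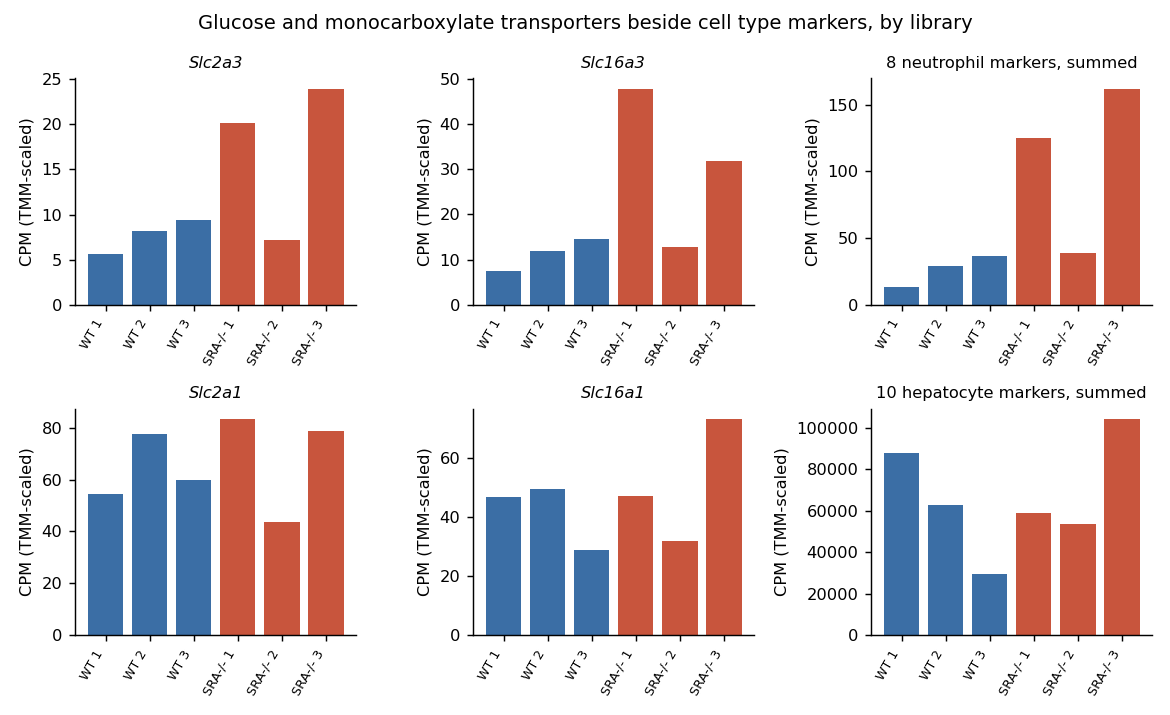
Levels of 4 transporters and the summed levels of 8 neutrophil and 10 hepatocyte markers in each library, all in CPM from 0, with wild type in blue and SRA-/- in red. SRA-/- replicates 1 and 3 are the highest bars for Slc2a3, Slc16a3 and the neutrophil markers, and SRA-/- replicate 2 is close to wild type in all 3. Replicates 1 and 3 of SRA-/- are also the highest for Slc2a1, where SRA-/- replicate 2 is the lowest bar.

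Of the 9 enzymes of upper glycolysis, from glucose to the triose phosphates, 7 had fold changes below 0 and 2 above, and 0 had an unadjusted p under 0.05 (median -0.08). Tpi1, which interconverts the triose phosphates, had the smallest p of the 9 and read 69.1, 80.2 and 116.8 CPM in wild type against 70.2, 57.5 and 87.6 CPM in SRA-/- libraries (-0.31 ± 0.24, unadjusted p = 0.235). Aldoa, the ubiquitous aldolase, was at 107.2, 150.3 and 167.2 against 129.4, 134.5 and 142.4 CPM (-0.06 ± 0.20, unadjusted p = 0.761). In both genes wild type replicate 3 was the highest library, and the groups overlapped.

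The hexokinases, which trap glucose in the cell, varied more within wild type than between the groups. Hk1, the form found in most tissues, stood at 24.8, 54.8 and 83.5 against 54.4, 32.8 and 45.9 CPM (-0.29 ± 0.38, unadjusted p = 0.456). All SRA-/- values lay between the lowest and the highest wild type value. Hk3, the leukocyte form, read 11.96, 17.3 and 23.5 against 20.2, 19.5 and 19.2 CPM (0.16 ± 0.24, unadjusted p = 0.526). Its SRA-/- libraries were close to each other (19.6 ± 0.503 CPM, SD, n = 3) and within the wild type spread (17.6 ± 5.75 CPM). The 5 other upper enzymes, Hk2, Gpi1, Pfkl, Pfkp and Pfkm, had log2 fold changes from -0.29 to 0.01, and Hk2 ranged from 15.3 CPM in wild type replicate 1 to 78.3 CPM in wild type replicate 3.

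Pfkfb3 and Pfkfb4 make and break the sugar bisphosphate that activates phosphofructokinase, and both are known HIF targets. Pfkfb3 (mm39, chromosome 2, 11476244-11558888, - strand), with a CACGTG in the sequence above, was at 40.0, 59.1 and 93.5 CPM in wild type against 94.6, 66.7 and 87.3 CPM in SRA-/- libraries. Wild type replicate 3 lay within the SRA-/- range, and the log2 fold change was 0.37 ± 0.29 (unadjusted p = 0.237, interval -0.29 to 1.02). Pfkfb4 was less abundant at 6.15, 9.15 and 10.2 against 13.3, 8.48 and 11.6 CPM (0.39 ± 0.26, unadjusted p = 0.165). In both, wild type replicate 1 was the lowest library.

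In lower glycolysis, from triose phosphate to pyruvate, Gapdh and Eno1 were the members whose groups did not overlap. Gapdh (glyceraldehyde phosphate dehydrogenase, mm39, chromosome 6, 125138678-125143430, - strand) read 31.8, 32.6 and 24.0 CPM in wild type against 37.1, 34.8 and 39.7 CPM in SRA-/- libraries (log2 fold change 0.34 ± 0.18, unadjusted p = 0.0902). Eno1 (alpha enolase, mm39, chromosome 4, 150321178-150333336, + strand) read 41.9, 43.9 and 37.2 against 44.2, 56.9 and 54.1 CPM (0.34 ± 0.17, unadjusted p = 0.0778). The gap between the groups was small in both: 32.6 against 34.8 CPM for Gapdh and 43.9 against 44.2 CPM for Eno1. Both genes have many near-identical copies. In a reference transcript from GENCODE vM21, 82.5% of the 50-base windows of Gapdh occur in transcripts of other genes, and 72.2% of those of Eno1. Reads that fit several places were not counted, so the levels of 8.07 FPKM for Gapdh and 8.62 FPKM for Eno1 are uncertain.

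Pkm, the pyruvate kinase of leukocytes and other non-hepatocyte cells, had the widest spread of the 5 most abundant members. It read 71.2, 165.2 and 267.4 CPM in wild type against 192.3, 115.1 and 149.8 CPM in SRA-/- libraries (log2 fold change -0.14 ± 0.41, unadjusted p = 0.739, interval -1.06 to 0.78). Wild type replicates 1 and 3 were the lowest and highest of all 6 libraries, so the fold change turned to 0.37 without wild type replicate 3. Endothelial markers had the same extremes, with summed levels of 2635, 3611 and 4895 CPM in wild type against 3469, 3274 and 2926 CPM, and all 8 had log2 fold changes below 0, with 0 at an unadjusted p under 0.05 (median -0.20). What part the endothelial share has in the spread of Pkm was not tested. Pgam1, a phosphoglycerate mutase, was low at 3.40, 3.61 and 3.11 against 3.96, 2.54 and 4.36 CPM (0.10 ± 0.28, unadjusted p = 0.725), and Pgk1 had a fold change of -0.08. For these 2 genes 41.5% and 68% of windows are shared with other genes, and for Pkm 34.4%. In Pkm 15.3% of the exons also overlap Gm49759 on the same strand.

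The genes that set the fate of pyruvate had log2 fold changes from -0.08 to 0.04, all within the spread of replicates. Ldha (mm39, chromosome 7, 46490899-46505051, + strand) was at 302.6, 351.9 and 293.0 CPM in wild type against 325.8, 278.6 and 366.6 CPM in SRA-/- libraries (log2 fold change 0.04 ± 0.21, unadjusted p = 0.867, interval -0.43 to 0.50). Pdk1, the kinase that shuts pyruvate dehydrogenase, read 28.0, 26.0 and 31.6 against 27.5, 26.0 and 27.4 CPM (-0.08 ± 0.16, unadjusted p = 0.621). Ldhb, the subunit that favours pyruvate formation, was at 3.30, 3.27 and 7.61 against 5.70, 5.01 and 3.22 CPM (-0.02 ± 0.38, unadjusted p = 0.955). Ldhb varied from library to library, with wild type replicate 3 the highest, whereas Ldha and Pdk1 spanned a narrow range.

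Among the 7 other HIF targets 5 had fold changes below 0 and 2 above (median -0.20), and 0 had an unadjusted p under 0.05. Vegfa (mm39, chromosome 17, 46327919-46343295, - strand) was at 326.9, 317.8 and 289.7 CPM in wild type against 353.6, 281.6 and 344.1 CPM in SRA-/- libraries. The SRA-/- values lay on both sides of the wild type values, and the log2 fold change was 0.07 ± 0.20 (unadjusted p = 0.741, interval -0.38 to 0.52). Bnip3 (mm39, chromosome 7, 138492565-138511248, - strand), which has the most HIF core sites of the promoters printed, read 27.8, 23.9 and 21.6 against 20.8, 16.2 and 24.3 CPM (-0.26 ± 0.20, unadjusted p = 0.229). P4ha1, a collagen prolyl hydroxylase subunit, read 36.1, 43.3 and 42.5 against 35.4, 39.5 and 31.6 CPM (-0.20 ± 0.17, unadjusted p = 0.276). Ndrg1, a stress-induced gene, read 40.7, 85.7 and 92.3 against 59.2, 53.7 and 69.8 CPM (-0.26 ± 0.29, unadjusted p = 0.386). Wild type replicate 1 was the lowest library for Ndrg1, as for Hk1, Hk2 and Pkm, and the groups overlapped for all 7 targets. Adm, the vasodilator adrenomedullin, Ero1a, an oxidase of the endoplasmic reticulum, and Ankrd37 had log2 fold changes of 0.17, -0.06 and -0.42. Bnip3 shares 62.4% of its windows with other genes, and 22.7% of the exons of Ankrd37 overlap those of Lrp2bp on the opposite strand, which counting without strand cannot separate.

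Read by library, the members moved with individual libraries. Of the 33 genes, 15 had their highest value in wild type replicate 3 and 14 their lowest in wild type replicate 1, while 11 were lowest in SRA-/- replicate 2. The median deviation of the members from their mean over the 6 libraries was -0.21, 0.11 and 0.12 on the log2 scale in wild type, against 0.14, -0.17 and 0.11 in SRA-/-. Together the members took 0.143% to 0.239% of counts. Each group thus had 1 low library, wild type replicate 1 and SRA-/- replicate 2, and the other 4 lay close together. Endothelial and Kupffer cell marker sums were lowest in wild type replicate 1 but not in SRA-/- replicate 2, where the Kupffer cell sum was the highest (1602 CPM). The 37 genes of the mitochondrial genome took 19.8%, 9.95% and 16.1% of counts in wild type against 11.2%, 21.1% and 6.64% in SRA-/- libraries. Their share was thus highest in SRA-/- replicate 2 and next in wild type replicate 1. What part it has in the low values of the members was not tested.

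**Figure D4:**
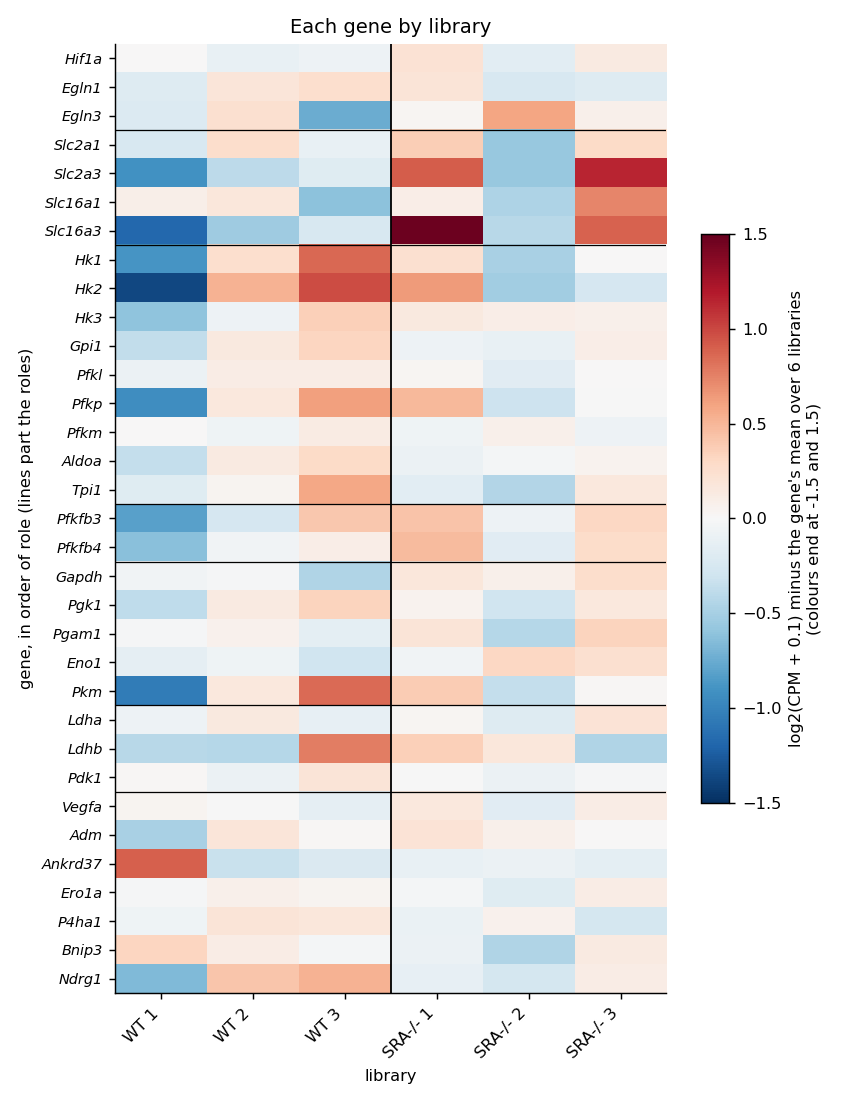
Deviation of each gene from its own mean over 6 libraries, as log2(CPM + 0.1), with genes in order of role (rows, parted by lines) and libraries in columns. Wild type replicate 1 is low and wild type replicate 3 high for Hk1, Hk2, Pfkp and Pkm, and SRA-/- replicates 1 and 3 are high for Slc2a3 and Slc16a3.

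Several steps of the pathway have more than 1 isoform, and the share of each in the summed counts per kilobase of its step does not depend on how libraries are scaled. Slc2a3 made up 4.79%, 4.83% and 7.09% of the 2 glucose transporters in wild type against 10.48%, 7.41% and 12.76% in SRA-/- libraries (5.57 ± 1.32% against 10.2 ± 2.69%, SD, n = 3 each). The shares did not overlap, by 7.41% against 7.09% at the nearest, and the exact two-sided permutation test gave p = 0.1, the smallest that 3 against 3 can give (0.525 adjusted over the 7 steps). Slc16a3 made up 11.76%, 16.52% and 29.53% of the 2 lactate carriers in wild type against 45.65%, 24.96% and 26.52%, with overlap (exact permutation p = 0.3). Its share was highest in SRA-/- replicate 1.

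In the other 5 steps the shares overlapped between the groups. Ldha was 94.81% to 98.18% of lactate dehydrogenase, Pfkfb3 80.64% to 85.55% of its pair and Egln1 83.96% to 95.05% of its pair with Egln3. The hydroxylase Egln2 was not part of that pair. Hexokinase was shared among Hk1 (27.95% to 33.43%), Hk2 (29.37% to 46.59%) and Hk3 (21.76% to 38.58%). Pfkl, the liver form of phosphofructokinase, made up 38.15% to 45.02% and Pfkp, the platelet form, 13.33% to 28.64%. The exact permutation test, run for 1 isoform in each step (Hk1, Pfkl, Ldha, Pfkfb3 and Egln1 here), gave p-values from 0.2 to 0.9.

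**Figure D5:**
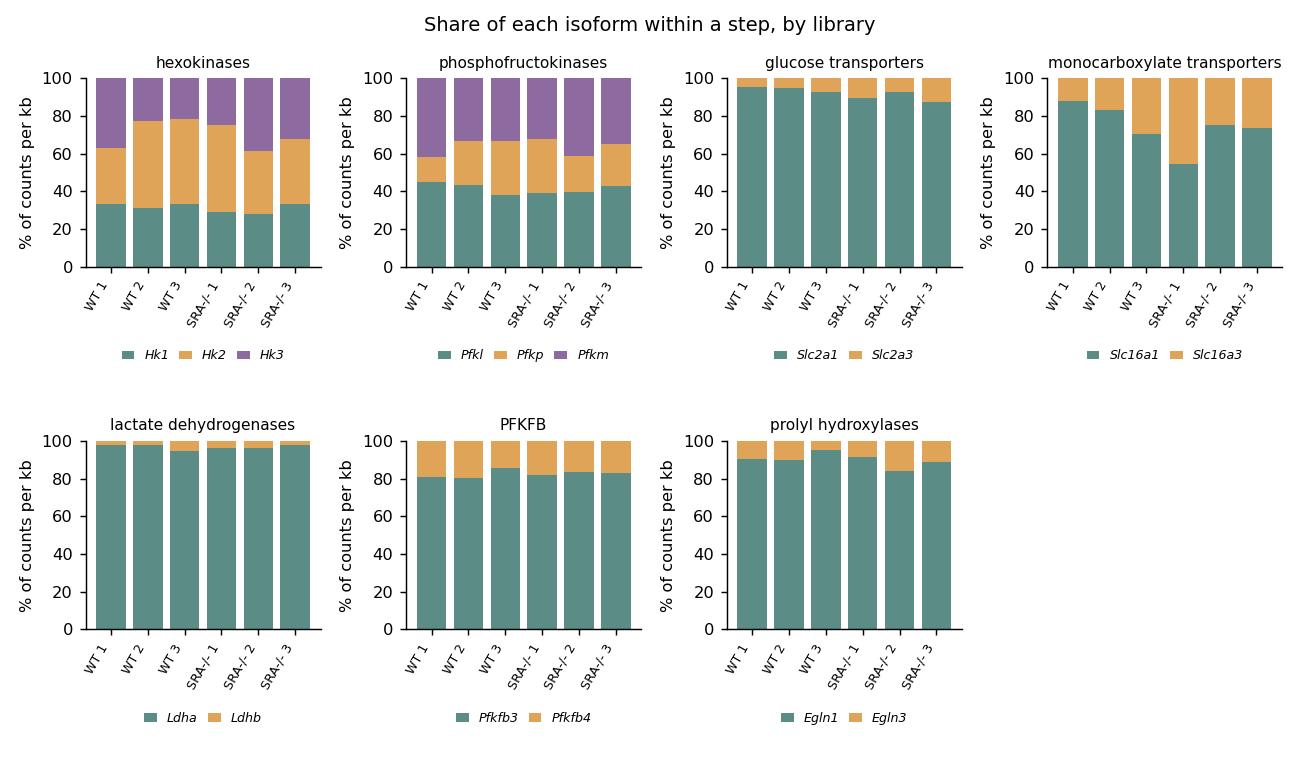
Share of each isoform (percent of counts per kilobase, stacked to 100) in 7 steps, by library. The Slc2a3 share is between 4.79% and 7.09% in wild type and between 7.41% and 12.76% in SRA-/- libraries, and Ldha fills over 94.8% of its step in all 6.

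Outside the members, 74 further genes of HIF signalling and glucose metabolism were listed and 72 tested, with a median log2 fold change of 0.01. Of the 72, 0 passed the adjusted threshold, and 6 were higher and 1 lower at an unadjusted p under 0.05. Over all tested genes 2.32% were higher and 0.896% lower at that unadjusted p by edgeR. Among 22 tested further HIF targets, Cxcr4, a chemokine receptor of leukocytes and endothelial cells, was at 7.39, 9.95 and 17.3 CPM in wild type against 28.1, 24.5 and 24.3 CPM in SRA-/- libraries. The groups did not overlap, and SRA-/- replicate 2 was as high as the other 2, unlike for Slc2a3 and Slc16a3 (1.15 ± 0.29, SE, unadjusted p = 0.003, edgeR adjusted p = 0.7607). By limma-voom with quality weights Cxcr4 was called (1.34, adjusted p = 0.01946). B cells are among the leukocytes that express Cxcr4, and 5 B cell markers summed to 10.4, 8.20 and 10.2 against 17.5, 24.65 and 16.8 CPM. The 7 T and NK cell markers summed to 7.04, 10.5 and 12.3 against 11.5, 14.2 and 12.9 CPM, 6 with log2 fold changes above 0 and 1 below. Neutrophil and monocyte sums are given above. The part of any of these cells in the difference was not tested. Of the 22, 2 were higher and 1 lower at an unadjusted p under 0.05. The other two, both of low level, were Edn1, the vasoconstrictor endothelin (0.253 FPKM, log2 fold change 1.28 ± 0.44, unadjusted p = 0.0171), and Plod2, a collagen lysyl hydroxylase (0.493 FPKM, -1.03 ± 0.40, unadjusted p = 0.0275). Bhlhe40, a repressor and the most abundant of this list at 50.9 FPKM, was at 203 ± 21.3 against 276 ± 32.3 CPM (SD, n = 3 each, 0.44 ± 0.20, unadjusted p = 0.051), with no overlap.

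In the list of 18 liver, muscle and brain isoforms of glycolysis, Pklr, the pyruvate kinase of liver and red cells, read 11.5, 11.96 and 7.64 CPM in wild type against 19.4, 15.1 and 32.3 CPM in SRA-/- libraries (1.10 ± 0.30, SE, unadjusted p = 0.00487, edgeR adjusted p = 0.8406). The groups did not overlap. The 6 erythroid markers summed to 1291, 502.7 and 688.9 against 1622, 1435 and 611.7 CPM, and the hepatocyte sums are given above. Pklr and the hepatocyte sum were both lowest in wild type replicate 3 and highest in SRA-/- replicate 3. Neither list kept the full order of Pklr over the libraries, and the part of either cell type in its difference was not tested. Pdk4, a fasting-induced kinase of pyruvate dehydrogenase, had a log2 fold change of 0.92 ± 0.36 (unadjusted p = 0.0303) and was at 122.6 CPM in SRA-/- replicate 1, against 29.1 to 51.0 CPM in the other 5 libraries. Without that library its log2 fold change was 0.33.

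Gluconeogenesis, the pentose phosphate pathway and mitochondrial pyruvate oxidation gave 2 further genes at an unadjusted p under 0.05, both higher in SRA-/- libraries. Over all tested genes the shares were 2.32% higher and 0.896% lower. In gluconeogenesis (6 genes, 1 under 0.05) Pck2, the mitochondrial carboxykinase, had a log2 fold change of 0.75 ± 0.32 (unadjusted p = 0.0418), with SRA-/- replicate 2 the highest at 16.1 CPM, and of 0.31 without that library. Fbp1 had 0.41 ± 0.23, and Pck1, at 620 FPKM the most abundant, had 0.00 ± 0.27. In the pentose phosphate pathway (7 genes, 0 under 0.05) the log2 fold changes were 0.27 for Tkt, -0.15 for Pgls and 0.17 for Taldo1, the most abundant at 15.2 FPKM. For mitochondrial pyruvate import and oxidation (8 genes, 1 under 0.05) Pdp2, a phosphatase that reactivates pyruvate dehydrogenase, read 36.6, 26.7 and 23.2 CPM in wild type against 58.9, 39.2 and 42.5 CPM in SRA-/- libraries (0.70 ± 0.23, unadjusted p = 0.0129, edgeR adjusted p = 0.9999). Mpc1, a subunit of the pyruvate carrier, had 0.32 and Pdhb, at 19.7 FPKM the most abundant, -0.03.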

How the data were processed

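RNA libraries were made from total RNA with a KAPA kit and ribosomal RNA depletion, per the labels' protocols. FastQC, STAR and featureCounts were used with build mm39, per the submitters' processing notes. The deposited values are raw counts per gene made by the authors with featureCounts 2.0.2 on GENCODE vM26, without strand and with each mate of a pair counted, per the file headers. Reads placed at several sites or over several genes were not counted under that command. For the aligner's settings and the trimming, no statement is given in the sources used here.

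The 3 wild type and 3 SRA-/- libraries were compared in R 4.3.3 with edgeR 4.0.16 (filterByExpr, TMM, robust quasi-likelihood, group only), with Benjamini-Hochberg adjustment over all 20541 tested genes. The titles call the replicates biological. No library pair was a duplicate. Isoform shares were tested by exact permutation. Intervals use the standard error and edgeR's degrees of freedom. The procedure was tested on simulated data. Alternatives were DESeq2 1.42.0, limma-voom (limma 3.58.1), other scalings and filters, a replicate block and each library left out.

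The members and lists were chosen with earlier results of these data known. Within each role the up to 3 members with the smallest p and the most abundant, plus Hif1a and Vegfa, are given library by library, and in each further list up to 2 genes by p and the most abundant. A gene that this rule named is not reported here. Shared sequence and promoters came from GENCODE vM21 and RefSeq GRCm38.p6, whose coordinates were not mixed with those of the counts. Figures were drawn with matplotlib 3.10.9.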

Additional observations from a re-analysis of the deposited data

How the results depend on the processing

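The number of members called was 0 under every alternative planned from the start. It was 2 (Slc2a3 and Slc16a3) without wild type replicate 1 and SRA-/- replicate 2 together, a pair chosen after seeing the data. Over all 20421 genes tested without that pair, 101 were called. Without that pair 16 of 32 tested members (50%) did not overlap between the groups, beside 38.6% of all tested genes, and with both replicates 3 left out 8 (24.2%, beside 30.9%), with 1 at an unadjusted p under 0.05. With each library left out in turn, members with an unadjusted p under 0.05 ranged from 1 to 3, and calls over all tested genes from 3 to 40. Members without overlap ranged from 2 to 11. The highest was without SRA-/- replicate 2 (33.3%, beside 17.5% of all tested genes) and the next without wild type replicate 1 (9, or 27.3%, beside 24%); with all 6 libraries it was 6.06% beside 7.3%. Fewer libraries overlap less often by construction. Overlap does not depend on the test, so DESeq2, limma-voom and the block give no count of it. The members' median stayed between -0.065 and 0.075 under all 16. Among all tested genes 10 were called, against 68 by DESeq2, 99 by limma-voom, 32 with no filter and 40 without SRA-/- replicate 2, and 0 of these calls were members. Same-numbered libraries correlated at -0.287, -0.143 and -0.131 in their deviations from the group means. With 3 libraries a group these values cannot decide whether the numbers pair the libraries. The labels do not say either, so libraries were treated as unpaired. With the replicate block 0 members and 5 genes were called, the members' median was 0.031, and Ldhb turned to 0.076.

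Of the 24 members given by library, 13 kept their direction in all 16 alternatives and 11, none of them called, did not; the cause was not tested. With limma-voom, Slc2a1 was -0.054, Ldha -0.065, Ldhb 0.433 and Pdk1 0.026. With both replicates 3 left out, Slc2a1 was -0.055, Slc16a1 -0.281, Hk1 0.133, Aldoa 0.035, Pgam1 -0.102, Pkm 0.38, Ldha -0.114, Ldhb 0.708 and Vegfa -0.021. With the pair left out, Hk3 was -0.045, Taldo1 -0.065 and Pdhb 0.111. With each library left out in turn the ranges were -0.062 to 0.343 for Slc2a1, -0.075 to 0.527 for Slc16a1, -0.631 to 0.156 for Hk1, -0.047 to 0.423 for Hk3, -0.222 to 0.072 for Aldoa, -0.048 to 0.301 for Pgam1, -0.496 to 0.367 for Pkm, -0.065 to 0.132 for Ldha, -0.23 to 0.508 for Ldhb, -0.098 to 0.005 for Epas1, -0.031 to 0.394 for Taldo1 and -0.155 to 0.089 for Pdhb. The share of Ldha differed by -0.93 to 0.71 percentage points and that of Pfkfb3 by -0.26 to 2.19. Slc16a3 ranged from 0.981 to 1.824 and Slc2a3 from 0.823 to 1.506 over the 16, with DESeq2 adjusted p of 0.1133 and 0.4396 and limma-voom adjusted p of 0.1231 and 0.2079.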

Other observations

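Most pseudogene copies of these genes held far fewer counts than their parents, such as 12 for Aldoa-ps4 beside 25836 for Aldoa, 72 for Pgk1-rs7 beside 2109 for Pgk1 and 570 for Ldha-ps2 beside 59359 for Ldha. The exceptions, chosen after their values were seen, were copies of Pgam1 and Ldhb. For Pgam1-ps2, listed as a pseudogene of Pgam1, wild type replicates 1 to 3 gave 132, 104 and 125 counts against 198, 125 and 122 for SRA-/-. Its total of 806 counts was above the 653 counts of Pgam1 itself. Ldhb-ps gave 24, 31 and 83 counts for wild type against 77, 50 and 20 for SRA-/-, beside 96, 86 and 257 against 262, 150 and 71 counts of Ldhb (totals 285 and 922). Reads that match a parent and its copy equally were not counted. How many of the copies' counts come from parent transcripts was not tested.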
